A study of Mus musculus with 23 samples.

Results

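Sox8, Sox9 and Sox10 encode the SOXE group of SRY-related transcription factors. They were taken by name from the deposited gene tables, where they are 3 of 35385 gene symbols, and all 3 had values in all 23 libraries and passed every filter on low values. SOXE proteins bind DNA through an HMG box and share a dimerization domain and an activation domain. In the oligodendrocyte lineage SOX9 is known for the step from neural stem cell to glia, SOX10 for terminal differentiation and the switching on of myelin genes, and SOX8 as a partner of weaker effect whose role overlaps with theirs. SOX5 and SOX6, of the SOXD group, have no activation domain of their own and are known to act with SOXE factors in cartilage and against SOX10 in oligodendrocyte progenitors.

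RNA selected by its poly(A) tail came from cultured mouse oligodendrocyte progenitor cells (OPCs), derived from epiblast stem cells of the lines EpiSC5 and 129O1 (strains 129SvEv and 129S1/SvImJ), and from the immature oligodendrocytes (OLs) made from them in culture. The series title asks what sets the timing of oligodendrocyte maturation. Sorted OPCs and sorted OLs, purified on magnetic beads (O1 antibody for the OLs), had 3 libraries each. The other 17 libraries came from a SOX6 experiment. There, all cells, controls included, carried a lentiviral CRISPRv2 vector and had passed 96 hours of puromycin (500 ng/mL). Control cells carried a non-targeting guide (3 OPC and 3 OL libraries), and targeted cells carried Sox6 guide 1 (2 OPC and 3 OL libraries) or Sox6 guide 2 (3 and 3). The cells then spent 60 hours in growth medium with PDGFA and bFGF (OPCs) or in a differentiation permissive medium that lacks the thyroid hormone T3 (OLs). These OLs were whole cultures, not sorted, and every targeted culture was a pool of transduced cells rather than a clone. The labels tie each line to a replicate number of the OPCs, but do not say which line the libraries named here came from, so libraries of a group may differ by line and strain or may be technical repeats of 1 line. Per the labels, control and targeted cells came from 1 batch of OPCs. The SDs and p-values cover only the spread between these libraries, whatever its source. In such bulk RNA, fewer cells of a type and less RNA per cell cannot be told apart.

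The 17 libraries held 13124580 to 18551822 estimated counts each. For the sorted libraries the depth is unknown. Libraries are named by the letters of the deposited columns. OL guide 1 library B stood apart: its TMM scaling factor was 0.92 against 0.98 to 1.03 in the other OL libraries, and its levels relative to its group fell with transcript length (Spearman rho -0.41, across genes). It was the lowest OL library for all 3 SOXE genes. Tests of the SOXE genes in OLs are given without it where that changed a call. Counts of listed genes called in targeted OLs are given without it where the count changed. Myelin and mature oligodendrocyte markers (16 genes) summed to 68.0 to 94.2 TPM (transcript abundance corrected for length and depth) in control OPCs, 1257 to 1418 TPM in control OLs and 26530 to 26786 TPM in sorted OLs. Mog and Mal, 2 late myelin genes, were listed at 0 in all control OLs, but Mal was at 0 in all sorted OLs too. Pdgfra, the receptor that marks OPCs, had 4.94 TPM in control OPCs and 27.6 TPM in control OLs, but in sorted cells the OPCs had 11.4 TPM and the OLs 0.906 TPM.

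The 3 genes lie on 3 chromosomes of the GRCm38 (mm10) assembly in the GENCODE M21 annotation. Sox8 spans chr17:25565892-25570686 on the minus strand with 3 exons and a coding length of 1392 bases, Sox9 spans chr11:112782224-112787760 on the plus strand with 3 exons and 1521 coding bases, and Sox10 spans chr15:79154908-79165240 on the minus strand with 5 exons and 1398 coding bases. Over 329 bases, the start of Sox8 overlaps 2810468N07Rik, an antisense gene. Strand is not kept by the library kit, and reads of the 2 genes cannot be told apart there. Sox9 and Sox10 overlap no annotated gene.

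The coding sequences were alike enough to ask whether reads could be shared. Sox9 and Sox10 were identical at 67.46% of aligned coding bases, Sox8 and Sox9 at 64.55%, and Sox8 and Sox10 at 62.49%. The 150 bases that the 3 genes share best lie in the stretch that encodes the HMG box, the DNA-binding domain, and are shown as the part most alike in all 3. Capitals mark the bases that are not the same in all 3 genes, and 121 of 150 bases (80.67%) are the same.
Sox8: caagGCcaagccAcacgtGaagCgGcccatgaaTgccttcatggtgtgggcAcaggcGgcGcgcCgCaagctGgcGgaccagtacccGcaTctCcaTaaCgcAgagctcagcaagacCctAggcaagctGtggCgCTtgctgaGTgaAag
Sox9: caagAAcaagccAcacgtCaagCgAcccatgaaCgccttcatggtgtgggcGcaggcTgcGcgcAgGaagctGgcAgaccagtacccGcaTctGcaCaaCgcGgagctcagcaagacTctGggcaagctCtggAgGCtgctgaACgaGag
Sox10: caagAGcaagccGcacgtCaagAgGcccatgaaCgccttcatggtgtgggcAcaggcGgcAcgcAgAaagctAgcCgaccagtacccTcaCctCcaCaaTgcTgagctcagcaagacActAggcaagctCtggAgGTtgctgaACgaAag
Differences are spread along the whole window. Over the whole transcripts, Sox9 and Sox10 shared 25 stretches of 31 bases, counted so that they may overlap, and Sox8 shared 0 with either. None of these 25 lies within the window shown, where no 31 bases in a row are the same in Sox9 and Sox10. No SOXE gene shared such a stretch with Sox6 (0 for each pair).

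The study's guides were also set against the SOXE transcripts, because a cut in a member would bear on its value. Guide 1 and guide 2 each matched a coding exon of Sox6 with 0 mismatches beside an NGG motif. Their nearest sites in the Sox10 transcript are shown with mismatched bases in capitals.
Sox6 guide 1: ttgacggaatgaactgtacg
Nearest Sox10 site: CtgaATgTGGgaactgGTcg
Sox6 guide 2: agaacacgctttgagaacct
Nearest Sox10 site: aCaCcaGgGGGCgagaCcGt
The first pair differs at 8 bases and the second at 9. For guide 1 the nearest sites had 10 mismatches in Sox8 and 8 in Sox9, and for guide 2 they had 10 and 9. The non-targeting guide came as near, with 10 mismatches in Sox8, 8 in Sox9 and 7 in Sox10. Introns and promoters were not searched.

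**Figure D1:**
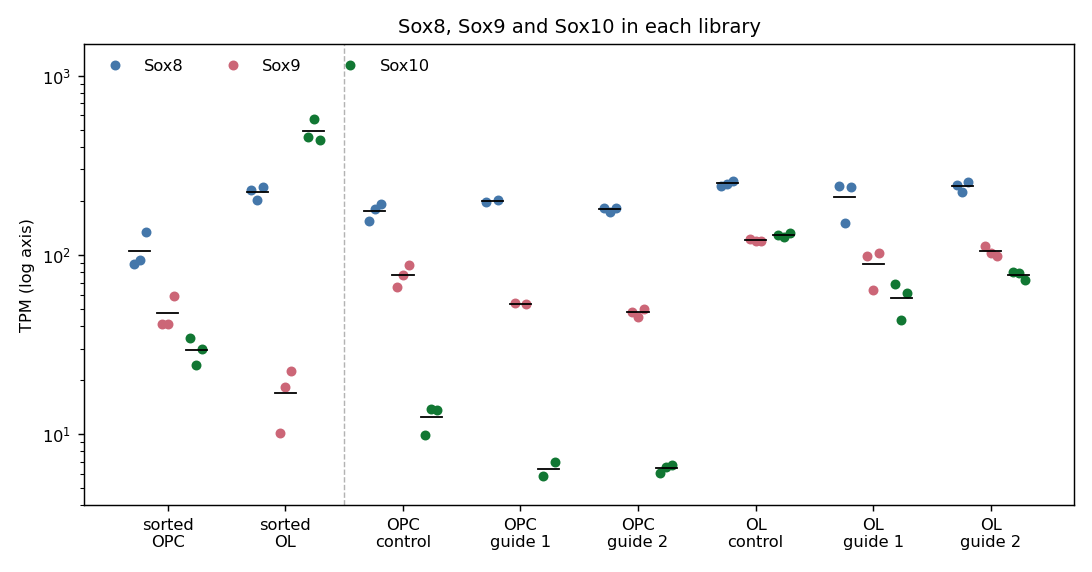
TPM (log axis) of Sox8, Sox9 and Sox10 in each of the 23 libraries, by group; each point is a library and each black line a group mean. Sorted cells are left of the dashed line and came in a separately scaled table. Sox10 covers the widest range, from 5.82 to 571.3 TPM, Sox9 is lowest in sorted OLs, and Sox8 stays between 88.6 and 259.3 TPM.

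Levels of the 3 genes were compared in TPM, which corrects for transcript length. Sox8 was the most abundant SOXE transcript in 7 of the 8 groups, and sorted OLs were the exception. In control OPCs Sox8 had 175.4 ± 18.9 TPM, Sox9 77.0 ± 10.7 TPM and Sox10 12.4 ± 2.23 TPM (SD, n = 3 for each). In control OLs the means were 250.6 ± 8.28 TPM for Sox8, 129.5 ± 3.18 TPM for Sox10 and 120.5 ± 2.20 TPM for Sox9 (SD, n = 3). Sox10 lay above Sox9 in all 3 control OL libraries, by a ratio of 1.05 to 1.12, whereas in control OPCs that ratio was 0.149 to 0.179.

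Sorted cells gave the same order in OPCs and another in OLs. Sorted OPCs had 105.7 ± 25.4 TPM of Sox8, 47.1 ± 10.5 TPM of Sox9 and 29.4 ± 4.99 TPM of Sox10 (SD, n = 3). Sorted OLs had 488.6 ± 72.1 TPM of Sox10, 224.1 ± 19.9 TPM of Sox8 and 16.9 ± 6.28 TPM of Sox9 (SD, n = 3). No library of 1 gene overlapped those of another gene within either sorted group.

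Across the groups, the mean level of Sox8 ran from sorted OPCs (105.7 TPM) through control OPCs, guide 2 OPCs (179.0 TPM), guide 1 OPCs (200.7 TPM), guide 1 OLs (209.8 TPM), sorted OLs and guide 2 OLs (241.0 TPM) to control OLs. From control OPCs upward, neighbouring groups in that order differed by less than their SDs or overlapped, apart from guide 1 OPCs, whose 2 libraries (198.1 and 203.4 TPM) lay above all guide 2 OPC libraries (173.5 to 182.0 TPM). Sox9 ran from sorted OLs through sorted OPCs, guide 2 OPCs (47.7 TPM), guide 1 OPCs (53.3 TPM), control OPCs, guide 1 OLs (88.4 TPM) and guide 2 OLs (104.5 TPM) to control OLs. Among these, sorted OPCs overlapped the OPCs of each guide, and guide 1 OLs overlapped both control OPCs and guide 2 OLs. The overlap with control OPCs came only from OL guide 1 library B (63.6 TPM). The other neighbours in the Sox9 order did not overlap. Sox10 ran from the OPCs of guides 1 and 2 (6.42 and 6.44 TPM, overlapping) through control OPCs, sorted OPCs, guide 1 OLs (57.8 TPM), guide 2 OLs (77.2 TPM) and control OLs to sorted OLs. Apart from the pair of guides in OPCs, no neighbouring groups in the Sox10 order overlapped. The sorted and the SOX6 tables were scaled separately, so a level set across them carries that limit. OL guide 1 library B also lowered its group's means, with 150.4 TPM of Sox8 and 43.3 TPM of Sox10. The other guide 1 OL libraries lay above the sorted OL mean of Sox8.

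As a share of the summed SOXE TPM, Sox10 made up 4.68% ± 0.40 of the sum in control OPCs and 25.9% ± 0.31 in control OLs (SD, n = 3). In sorted cells it made up 16.5% ± 3.96 in OPCs and 66.7% ± 4.94 in OLs (SD, n = 3). Sox8 held 66.3% ± 0.83 of the sum in control OPCs and 50.1% ± 0.88 in control OLs, and Sox9 held 29.0% ± 0.81 and 24.1% ± 0.81 (SD, n = 3). Sox9 kept 25.8% ± 0.73 of the sum in sorted OPCs and 2.32% ± 0.88 in sorted OLs (SD, n = 3). Among 19 SOX genes ranked by mean TPM, Sox8 was the third in every group. Sox10 moved from the eleventh place in control OPCs to the fifth in control OLs and was the highest of all SOX genes in sorted OLs. The 3 SOXE genes together held 22.8% to 24.0% of all SOX TPM in the OPC libraries of the SOX6 experiment, 27.9% to 28.4% in control OLs and 43.9% to 46.9% in sorted OLs.

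**Figure D2:**
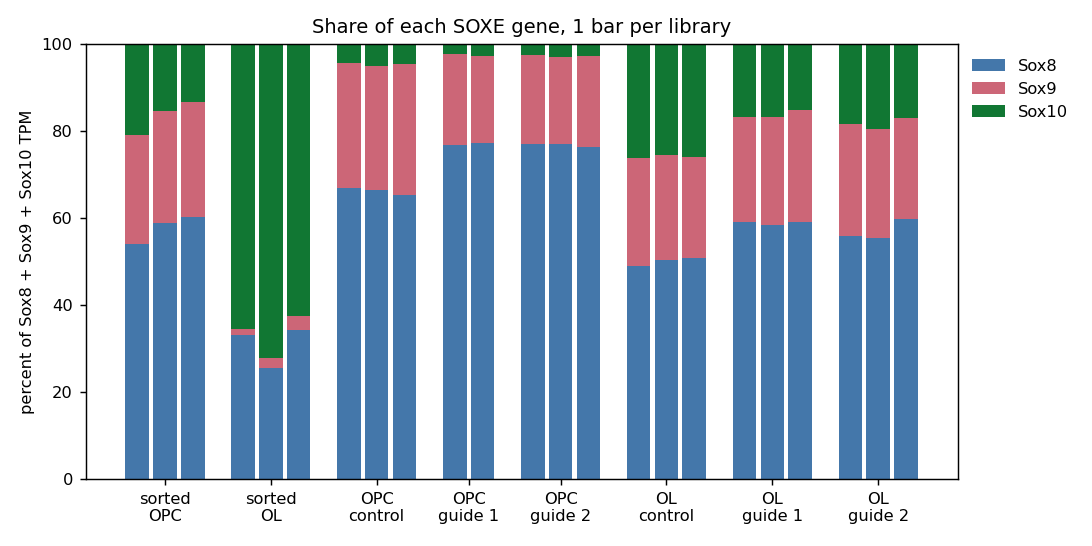
Percent of the summed Sox8, Sox9 and Sox10 TPM held by each gene, 1 stacked bar per library, by group. Sox10 holds 4.29% to 5.09% in control OPCs and 62.6% to 72.2% in sorted OLs, and its share is smaller in targeted than in control libraries of either stage.

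The step from growth to permissive medium was tested across all genes in control cells. All 3 SOXE genes were higher in control OLs. Of all 14352 genes tested, 43% were called in this comparison and 21.4% were called higher, so a rise by itself was common. The stages came as separate tables, and table and stage cannot be told apart.

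Sox10, which activates myelin genes, had 24.4, 32.7 and 30.4 CPM (counts scaled to one library size, after TMM) in control OPC libraries A to C. It had 265.5, 256.3 and 275.1 CPM in control OL libraries A to C. Every OL library was thus far above every OPC library. The log2 difference was 3.19 ± 0.10 (SE), a 9.10-fold rise, with an adjusted p of 6.77e-12 (edgeR quasi-likelihood test, Benjamini-Hochberg). Sox9 had 266.9, 292.7 and 312.0 CPM in control OPCs and 425.7, 414.7 and 403.9 CPM in control OLs. These groups did not overlap either, and Sox9 rose 1.43-fold (log2 0.51 ± 0.08 SE, edgeR adjusted p 0.000122). Sox8 had 422.6, 450.5 and 447.2 CPM in control OPCs and 557.2, 577.1 and 563.1 CPM in control OLs. Its rise was the smallest of the 3, 1.29-fold (log2 0.36 ± 0.06 SE, edgeR adjusted p 0.000116). The median log2 difference of all genes was 0.02.

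In sorted cells the 3 genes moved differently. This test used limma on log2(TPM + 1), which called 60.2% of 11902 genes, 26.3% higher and 33.8% lower. Sox10 had 34.3, 24.3 and 29.7 TPM in sorted OPC libraries A to C and 455.7, 571.3 and 438.8 TPM in sorted OLs. It rose by 4.01 ± 0.17 (SE) on the log2(TPM + 1) scale (adjusted p 1e-05), a 16.1-fold difference, with no overlap. Sox8 had 88.6, 93.5 and 134.8 TPM in the sorted OPC libraries, and 230.5, 201.8 and 240.1 TPM in the sorted OL libraries. It rose by 1.10 ± 0.18 (SE; limma adjusted p 0.00258), again with every OL library above every OPC library. Sox9 had 41.0, 41.1 and 59.1 TPM in the sorted OPC libraries, and 10.1, 18.2 and 22.4 TPM in the sorted OL libraries. It fell by 1.47 ± 0.31 (SE; limma adjusted p 0.00677), and all sorted OLs lay below all sorted OPCs. On the same log2(TPM + 1) scale Sox9 differed by 0.65 between control OLs and control OPCs (limma adjusted p 0.00489), higher in OLs. The median difference of all genes on this scale was -0.14.

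Sox9 therefore rose from OPCs to OLs in the unsorted cultures and fell between the sorted cells, a difference that was not tested because the tables were scaled separately. SOX9 is also a marker of astrocytes. The 16 other astrocyte markers on the list used here summed to 1059 to 1192 TPM in control OPCs and 5531 to 5996 TPM in control OLs. Of the 15 tested there, 10 were called higher, beside 21.4% of all genes, and 1, Id3, was called lower. In sorted cells the markers summed to 794 to 875 TPM in OPCs and 2156 to 4272 TPM in OLs. Of the 14 tested in sorted cells, 5 were called higher and 5 lower, beside 26.3% and 33.8% of all genes. Of these 16 markers, 12 had a mean above 1 TPM in control OPCs and 15 in control OLs. Gfap, the intermediate filament of astrocytes, had 1.22 TPM in control OLs and 193 TPM in sorted OLs. The part of such cells in the Sox9 values was not tested.

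Targeting was looked at first in the RNA of Sox6 itself, which does not measure cuts in the gene or loss of SOX6 protein. Its level was 165.4 to 233.7 CPM in control OPCs and 67.4 to 88.9 CPM in the 5 targeted OPC libraries. In OLs it was 387.4 to 437.3 CPM in controls and 157.2 to 258.6 CPM in the 6 targeted libraries. Groups did not overlap at either stage. Sox6 fell by 1.32 ± 0.13 (SE) in OPCs (edgeR adjusted p 0.00147) and by 0.81 ± 0.14 (SE) in OLs (edgeR adjusted p 0.00950) on the log2 scale. In OLs it fell by 0.91 with guide 1 and by 0.71 with guide 2 (edgeR adjusted p 0.0161 and 0.04996). In the authors' deposited table, Sox6 in OLs stands at 0.83 as control over targeted with an adjusted p of 0.0593, and with guide 2 alone at 0.56 with an adjusted p of 0.384, so neither passed there.

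In targeted OPCs, Sox10 and Sox9 fell and Sox8 did not pass the test. That is 2 of 3 genes called, both lower, where 3.59% of 13358 genes were called, 1.63% lower and 1.95% higher. Sox10 had 13.5 and 14.97 CPM in guide 1 libraries A and B and 14.1, 15.3 and 15.8 CPM in guide 2 libraries A to C. All 5 lay below the lowest control, 24.4 CPM. Sox10 fell by 0.97 ± 0.11 (SE) on the log2 scale, to 50.9% of the control level (95% interval 42.5 to 61.0; edgeR adjusted p 0.00356). This is the least abundant SOXE transcript at this stage, with 214 to 249 estimated counts in 4 targeted libraries and 262 in guide 2 library C.

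Sox9 had 192.0 and 187.5 CPM with guide 1 and 180.5, 168.8 and 184.1 CPM with guide 2 in OPCs. Again no targeted library reached the lowest control, 266.9 CPM. Sox9 fell by 0.64 ± 0.06 (SE), to 64.2% of the control level (95% interval 58.2 to 70.7; edgeR adjusted p 0.00147). With limma on log2(TPM + 1) its call was lost (-0.59, adjusted p 0.0583). Sox8 had 470.0 and 476.3 CPM with guide 1 and 443.1, 434.2 and 443.5 CPM with guide 2. Guide 1 libraries were above all controls and guide 2 libraries lay among them. The log2 difference of Sox8 was 0.07 ± 0.04 (SE; edgeR adjusted p 0.387), with a 95% interval from 99.1% to 111.8% of the control level.

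Each guide was also tested alone in OPCs. With guide 1 the log2 difference was -1.001 ± 0.15 (SE) for Sox10 and -0.58 ± 0.08 (SE) for Sox9 (edgeR adjusted p 0.0141 and 0.00947). That is 2 of 3 genes called where 2.78% of all genes were, 372 genes, a number that was 7 without guide 1 library A and 20 without library B. With guide 2 it was -0.95 ± 0.13 (SE) for Sox10 and -0.70 ± 0.07 (SE) for Sox9 (edgeR adjusted p 0.0105 and 0.00287), 2 of 3 genes where 2.04% of all genes were called. Sox8 was not called with either guide (log2 0.14 and 0.01, edgeR adjusted p 0.186 and 0.964). Without guide 1 library A or without library B, which leaves guide 1 with a lone library assumed to vary like the other groups, the guide 1 calls were lost (edgeR adjusted p 0.108 and 0.127 for Sox9, 0.164 and 0.114 for Sox10). The guide 2 call of Sox10 was lost without guide 2 library A or B (edgeR adjusted p 0.0631 and 0.0546). With limma on log2(TPM + 1), all 4 calls of single guides in OPCs were lost (adjusted p 0.0818 to 0.159).

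In targeted OLs, Sox10 fell and neither Sox9 nor Sox8 passed the test, where 6.5% of 13447 genes were called, 3.37% lower and 3.13% higher. Leaving out OL guide 1 library B raised this to 16.9% of 13810 genes, 8.6% lower and 8.32% higher (2337 genes in place of 874). Sox10 had 139.8, 124.8 and 131.9 CPM with guide 1 and 161.0, 165.6 and 158.1 CPM with guide 2. All 6 were below the lowest control, 256.3 CPM, and above every OPC library. Sox10 fell by 0.86 ± 0.06 (SE), to 54.9% of the control level (95% interval 49.7 to 60.7; edgeR adjusted p 0.000138). In the targeted OLs Sox10 reached 57.8 ± 12.9 TPM with guide 1 and 77.2 ± 4.10 TPM with guide 2 (SD, n = 3), where control OPCs had 12.4 TPM. The guide 1 mean includes library B, at 43.3 TPM.

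Sox9 had 341.4, 293.7 and 361.8 CPM with guide 1 and 388.8, 378.2 and 343.6 CPM with guide 2 in OLs. All 6 were below the lowest control, 403.9 CPM, although the gap to the nearest was small. The log2 difference was -0.24 ± 0.08 (SE), or 84.4% of the control level (95% interval 74.2 to 96.1), with an edgeR adjusted p of 0.138. Without OL guide 1 library B it was -0.21 and was called (edgeR adjusted p 0.0127), as it was with both stages in 1 fit (-0.24, edgeR adjusted p 0.0367). Sox8 had 533.7, 479.2 and 551.4 CPM with guide 1 and 562.7, 537.2 and 563.2 CPM with guide 2. Every guide 1 library and guide 2 library B lay below the controls (557.2 to 577.1 CPM), and guide 2 libraries A and C lay among them. The log2 difference of Sox8 was -0.08 ± 0.07 (SE, edgeR adjusted p 0.612), with a 95% interval from 85.6% to 105.1% of the control level. Without OL guide 1 library B it was -0.054 (edgeR adjusted p 0.265).

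Sox10 was called with each guide in OLs, at a log2 difference of -1.01 ± 0.08 (SE) with guide 1 (edgeR adjusted p 0.000196) and -0.72 ± 0.08 (SE) with guide 2 (edgeR adjusted p 0.00131), the latter lost with limma on log2(TPM + 1) (-0.74, adjusted p 0.0812). That is 1 of 3 SOXE genes for each guide, beside 4.92% and 4.44% of all genes. Sox9 stood at -0.32 ± 0.10 (SE) with guide 1 and -0.17 ± 0.10 (SE) with guide 2 (edgeR adjusted p 0.112 and 0.472). Without OL guide 1 library B both were called (-0.24 and -0.18, edgeR adjusted p 0.0264 and 0.0452), where 11.4% and 15.5% of all genes were. Between the guides, Sox10 was higher with guide 2 in all 3 libraries against all 3 of guide 1. That difference was 0.28 ± 0.08 (SE) on the log2 scale, with an unadjusted p of 0.00464 and an edgeR adjusted p of 0.692. No gene was called between guides in OLs (0%, with 773 genes at an unadjusted p under 0.05 and 15 called by DESeq2) or in OPCs (0%, with 1106 and 109).

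**Figure D3:**
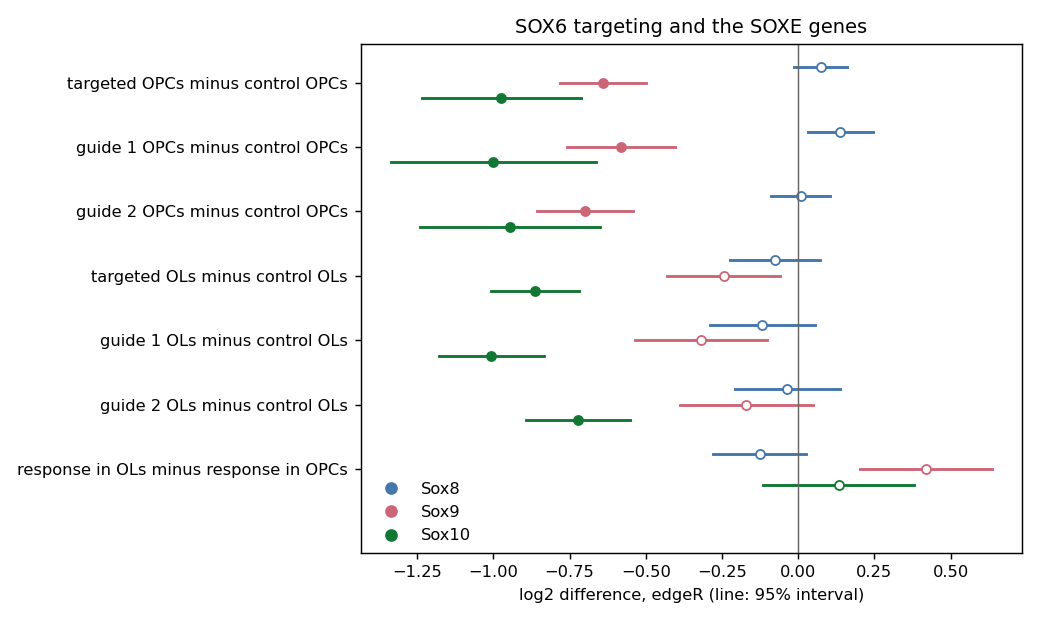
Log2 difference with its 95% interval for Sox8, Sox9 and Sox10 in SOX6-targeted against control cells, for both guides together, for each guide, and for the difference between the stages. Filled points have an edgeR adjusted p under 0.05. Sox10 lies between -1.01 and -0.72 in all 6 targeting comparisons, Sox9 between -0.70 and -0.17, and Sox8 near 0.

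The difference between the stages was tested itself. For Sox9 the response in OLs minus that in OPCs was 0.42 ± 0.10 (SE) on the log2 scale (edgeR unadjusted p 0.000998, adjusted p 0.0554), so the smaller response in OLs missed the threshold. It passed without OL guide 1 library B (0.46, edgeR adjusted p 0.00253) and with DESeq2 (0.41, adjusted p 0.00895). With limma on log2(TPM + 1) it was smaller, 0.25 (adjusted p 0.701), and with library totals it was 0.32 (edgeR adjusted p 0.301). For Sox10 the difference was 0.13 ± 0.12 (SE; edgeR adjusted p 0.746; 95% interval -0.11 to 0.38), and for Sox8 it was -0.13 ± 0.07 (SE; edgeR adjusted p 0.567; 95% interval -0.28 to 0.03). None of the 3 genes was called, beside 1.69% of all genes.

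Seen from the other side, the stage step of Sox10 was 3.32 ± 0.08 (SE) on the log2 scale in targeted cells, a 9.98-fold rise (edgeR adjusted p 1.18e-13), beside 3.19 in controls. Sox9 rose by 0.93 ± 0.06 (SE; edgeR adjusted p 8.46e-09) in targeted cells, and Sox8 by 0.24 ± 0.04 (SE; edgeR adjusted p 0.000289). All 3 were called, where 52.4% of all genes were. The share of Sox10 in the summed SOXE TPM was 2.46% ± 0.29 in guide 1 OPCs (SD, n = 2) and 2.76% ± 0.18 in guide 2 OPCs (SD, n = 3). It was 16.3% ± 0.88 in guide 1 OLs and 18.3% ± 1.24 in guide 2 OLs (SD, n = 3), and Sox8 took up 58.9% ± 0.39 and 57.0% ± 2.44 there. In targeted OPCs the share of Sox8 was 77.1% ± 0.27 with guide 1 (SD, n = 2) and 76.8% ± 0.47 with guide 2 (SD, n = 3).

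The authors' deposited table gives control over targeted. It lists log2 values of 0.99 for Sox10, 0.66 for Sox9 and -0.06 for Sox8 in OPCs, and of 0.86, 0.24 and 0.07 in OLs. In the same authors' deposited table the adjusted p of Sox9 in OLs is 0.173. For these 3 genes the signs there are those of the tests above, after the reversal of the ratio.

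In the targeted libraries the 16 other astrocyte markers summed higher than in controls, while Sox9 was lower. Their sum was 1389 to 1396 TPM with guide 1 and 1253 to 1335 TPM with guide 2 in OPCs, above the controls given before. Of the 15 tested, 3 were called higher (Apoe, Gja1 and S100b) and 0 lower, beside 1.95% and 1.63% of all genes. With single guides, S100b was called with both, Gja1 with guide 2 only and Apoe with neither. S100b is also on the list of SOX10 targets given below. In OLs the marker sum was 6281 to 6909 TPM with guide 1 and 6849 to 7231 TPM with guide 2. Only Aldoc was called higher there among the 15 tested, beside 3.13% of all genes, and with guide 1 but not guide 2 alone. Once OL guide 1 library B was left out, 6 of the 15 were called higher and 1 lower, beside 8.32% and 8.6% of all genes. Newly formed oligodendrocyte markers (12 genes) summed to 1986 to 2044 TPM in control OLs, 901 to 1153 TPM in guide 1 OLs (1092 to 1153 TPM without library B) and 1192 to 1291 TPM in guide 2 OLs. Myelin and mature oligodendrocyte markers summed to 1158 to 1616 TPM in guide 1 OLs and 1642 to 1808 TPM in guide 2 OLs, beside 1257 to 1418 TPM in control OLs. The lowest of these guide 1 sums was that of library B. Progenitor markers (12 genes) summed to 3936 to 4089 TPM in control OLs, 2875 to 3737 TPM with guide 1 (3581 to 3737 TPM without library B) and 3642 to 3852 TPM with guide 2. Such sums are set mostly by abundant genes. In targeted OLs, 5 of 12 newly formed markers were called lower and 0 higher. For progenitor markers it was 6 lower and 0 higher of 12, and for myelin markers 1 lower and 5 higher of 13. All genes gave 3.37% lower and 3.13% higher. Without OL guide 1 library B, the calls lower and higher were 6 and 0, 7 and 1, and 3 and 6, beside 8.6% and 8.32%. The part of any of these lists in the Sox9 or Sox10 values was not tested. Microglia markers summed to at most 1.44 TPM in any library.

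Likeness of pattern was described by Pearson's r over log2(CPM + 1) in the 17 libraries, among 8085 candidate genes. These libraries share 2 stages and 3 guides, which sets much of any r. Sox9 was most like Sox6, the targeted gene (r 0.98, with 0.99 within the 8 OPC and 0.91 within the 9 OL libraries). Next came Mapk8ip2, a scaffold of JNK signalling, Trim67, a ubiquitin ligase, Tenm2, a teneurin adhesion protein, and Gpr17, a receptor of newly formed oligodendrocytes, with r of 0.97 to 0.98. Sox10 was most like Kcnd2, a voltage-gated potassium channel (r 0.998), then Mapt, which encodes tau, Atcay, B3gat2 and Slc1a1, a glutamate transporter, with r of 0.99 to 0.996. Sox8 was most like Draxin, a secreted guidance protein (r 0.98), then Ncam2, Abca1, Exoc6b and Kidins220, at 0.98 each.

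**Figure D4:**
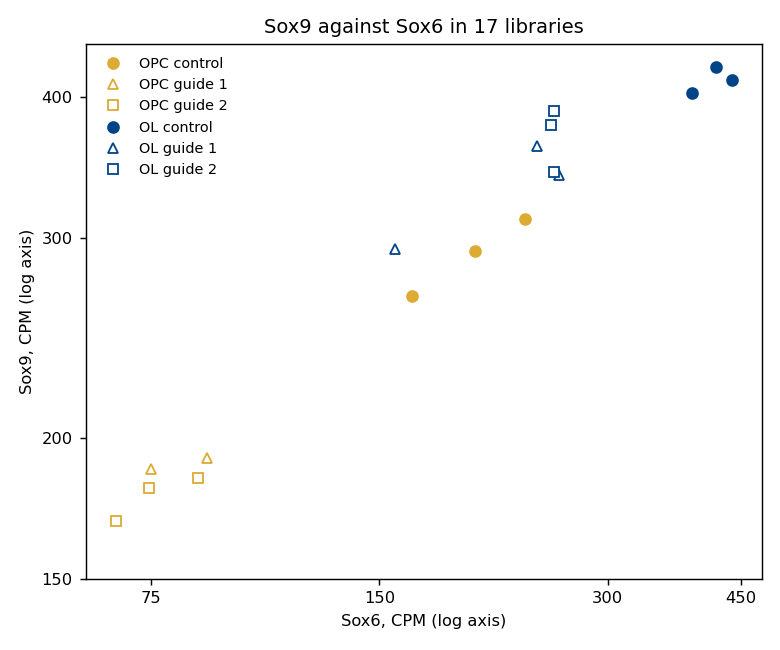
Sox9 against Sox6, both in CPM on log axes, with 1 point for each of the 17 libraries of the SOX6 experiment. Filled circles are controls and open symbols targeted libraries. Targeted libraries lie lower on both axes than controls of their stage, and the lowest OL point on the Sox6 axis is guide 1 library B (157.2 CPM).

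Among the SOXE genes themselves, Sox9 and Sox10 had an r of 0.93 over the 17 libraries, 0.96 within OPCs and 0.84 within OLs. Sox8 against Sox10 gave 0.90 over all libraries, but -0.31 within OPCs and 0.62 within OLs. Sox8 against Sox9 gave 0.80, -0.21 and 0.83. The OL values without guide 1 library B were 0.58 for Sox8 against Sox10, 0.54 for Sox8 against Sox9, 0.87 for Sox9 against Sox10 and 0.83 for Sox9 against Sox6, over 8 libraries.

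Of 10 other SOX genes tested in targeted OPCs, Sox6 and Sox2 were called lower and Sox13 higher, beside 3.59% of all genes called. With single guides in OPCs, Sox6 was called with both, Sox2 with guide 2 only and Sox13 with neither. In targeted OLs Sox6 and Sox12 were called lower and Sox13 higher, beside 6.5% of all genes. With OL guide 1 library B left out, 7 of the 10 were called lower there (Sox2, Sox3, Sox4, Sox6, Sox11, Sox12 and Sox21) and Sox13 higher, where 16.9% of all genes were called. Sox13, the third SOXD gene, went from 19.4 CPM in control OLs to 57.3 CPM with guide 1 and 57.2 CPM with guide 2 (log2 1.56 ± 0.09 SE, edgeR adjusted p 3e-05). Sox5, the SOXD gene closest in role to Sox6, was not called in OPCs (0.31 ± 0.07 SE, edgeR adjusted p 0.0522) or in OLs (0.06 ± 0.17 SE, edgeR adjusted p 0.899). The median log2 difference of the 10 genes was -0.06 in OPCs and -0.18 in OLs, beside 0.00 for all genes at both stages.

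Of the partners and regulators of SOXE factors in this lineage, 0 of 24 tested were called in targeted OPCs, where 3.59% of all genes were. In targeted OLs 4 of 24 were called lower and 2 higher, beside 3.37% and 3.13% of all genes, and without OL guide 1 library B 8 were called lower and 4 higher, beside 8.6% and 8.32%. Among the lower ones were Nfatc2, a calcium-regulated factor that works with SOX10 (log2 -1.27 ± 0.22 SE), Nkx2-2 (-0.37 ± 0.07 SE) and Olig2, the lineage's core bHLH factor (-0.27 ± 0.06 SE), with edgeR adjusted p of 0.00899, 0.0196 and 0.0419. The higher ones were Hes5, a Notch effector known to bind and restrain SOX10 (0.60 ± 0.13 SE, edgeR adjusted p 0.0258), and Nfib (0.34 ± 0.07 SE, edgeR adjusted p 0.0218). With single guides, Nfatc2 and Hes5 were called with guide 1 only, Nkx2-2 and Nfib with guide 2 only, and Olig2 with neither. These genes were all called with each guide once OL guide 1 library B was left out. Myrf, the myelin gene regulator that SOX10 induces, had 35.9 CPM in control OLs, 21.3 CPM with guide 1 and 24.7 CPM with guide 2 and was not called (-0.65 ± 0.37 SE, edgeR adjusted p 0.419). Myrf was called lower without OL guide 1 library B (-0.44 ± 0.11 SE, edgeR adjusted p 0.0239). The list's median was -0.06 in OLs and 0.03 in OPCs.

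Genes known as SOX10 targets in oligodendrocytes split in direction while Sox10 was lower. In targeted OPCs, 7 of the 18 tested were called higher (Aatk, Cnp, Enpp2, Mbp and S100b among them) and 1 lower (Gjc3), beside 1.95% and 1.63% of all genes. Of these named genes, Aatk was called with guide 1 only and the others with each guide. In targeted OLs, 6 of 21 were called higher (Cldn11, Enpp2, Mbp and Mobp among them) and 4 lower (Cspg4, Dusp15, Gjc3 and Nfatc2), beside 3.13% and 3.37% of all genes. In OLs Mbp was called with guide 2 only and Cspg4 and Nfatc2 with guide 1 only, though with each guide when OL guide 1 library B was left out. Without OL guide 1 library B, 7 were called higher and 8 lower, beside 8.32% and 8.6%, with Aatk, Mag, Myrf and S100b now among the lower ones. The list's median log2 difference was 0.14 in OPCs and 0.19 in OLs.

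Gjc3, a gap junction protein of oligodendrocytes, followed the direction of Sox10 at both stages. It had 23.5 CPM in control OPCs, 12.2 CPM with guide 1 and 12.3 CPM with guide 2, and in OLs 239 CPM, 88.7 CPM and 106 CPM. Its log2 difference was -0.92 ± 0.11 (SE) in OPCs and -1.30 ± 0.07 (SE) in OLs, lower at both stages (edgeR adjusted p 0.00518 and 1.88e-05). Dusp15, a phosphatase induced in differentiation, fell by 0.97 ± 0.08 (SE) in OLs, from 52.2 CPM to 25.1 CPM and 28.1 CPM (edgeR adjusted p 0.000186).

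Mobp, a myelin protein gene, went the other way, from 1.43 CPM in control OLs to 65.4 CPM with guide 1 and 73.0 CPM with guide 2 (log2 5.60 ± 0.18 SE, edgeR adjusted p 3.71e-06). Mbp, the myelin basic protein gene, rose by 0.40 ± 0.07 (SE) in OLs, from 705 CPM to 870 CPM and 997 CPM (edgeR adjusted p 0.00844). In OPCs Mbp rose by 2.22 ± 0.36 (SE), but from 0.558 CPM to 2.86 CPM and 2.39 CPM (edgeR adjusted p 0.0142). For comparison, 18 of the 21 tested genes of this list were called higher in sorted OLs, beside 26.3% of all genes, and 16 of 21 in control OLs, beside 21.4%.

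**Figure D5:**
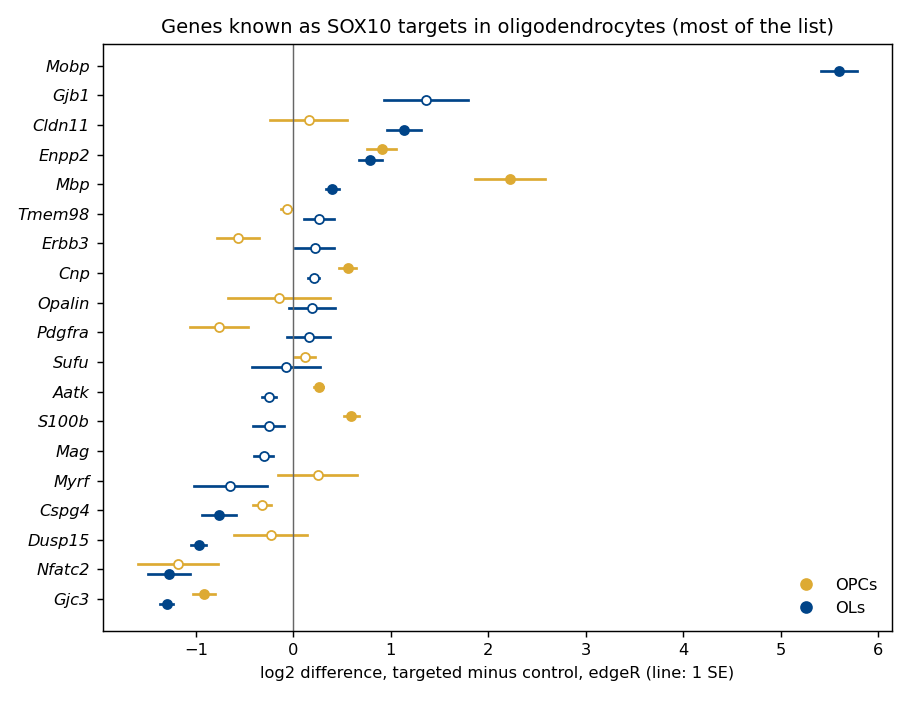
Log2 difference (targeted minus control, line: 1 SE) of most of the genes known as SOX10 targets in oligodendrocytes, in OPCs and in OLs. Filled points have an edgeR adjusted p under 0.05. Mobp (5.60 in OLs) and Mbp (2.22 in OPCs) lie on the right, and Gjc3 (-0.92 and -1.30) on the left at both stages.

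Genes known as SOX9 targets in cartilage were partly changed in targeted cells, though Matn1, Matn4 and Col9a1, given below, were low. In targeted OLs 5 of 11 tested were called lower (Acan, Col11a2, Matn1, Matn4 and Sox6) and 1 higher (Col9a1), beside 3.37% and 3.13% of all genes. Without OL guide 1 library B, 6 of 11 were called lower and 1 higher, beside 8.6% and 8.32%. Sox6 is on that list and is the targeted gene. Matn1, a cartilage matrix protein, went from 8.93 CPM in control OLs to 0.987 CPM with guide 1 and 1.08 CPM with guide 2 (log2 -3.10 ± 0.22 SE, edgeR adjusted p 0.000113). Matn4, of the same family, went from 21.3 CPM to 8.04 CPM and 9.54 CPM (log2 -1.28 ± 0.17 SE, edgeR adjusted p 0.00261). Col9a1, a chain of collagen type IX, rose from 0.219 CPM to 18.8 CPM and 15.3 CPM in OLs (log2 6.15 ± 0.90 SE, edgeR adjusted p 0.00421) and fell by 0.99 ± 0.19 (SE) in OPCs (edgeR adjusted p 0.032). With so few control counts in OLs, the fitted size of that rise depends on the prior count. In OPCs Col9a1 and Sox6 were the only ones called of the 9 tested, both lower, beside 1.63% of all genes. Col9a1 was called there with guide 1 but not with guide 2 alone.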

How the data were processed

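Salmon 0.14.1, DESeq2 and the build mm10 are named in the submitters' processing notes. For the SOX6 experiment the authors deposited estimated counts by gene symbol (1 table per stage), and for all libraries the deposited files give TPM. They also deposited log2 fold changes and adjusted p-values (control over targeted). Estimated counts were rounded, filtered with filterByExpr (minimum count 10, total 15), scaled by TMM and tested two-sided with edgeR 4.0.16's quasi-likelihood F test (R 4.3.3), each stage alone, or both stages in 1 fit for contrasts across stages. For the sorted cells limma 3.58.1 was run on log2(TPM + 1), keeping genes at 1 TPM or more in at least 3 libraries; such differences understate changes of low genes. Adjusted p-values are Benjamini-Hochberg over all genes tested (threshold 0.05). Fold changes of both guides are the mean of guides 1 and 2 minus control.

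The members and gene lists were chosen with earlier results of these data known. Named genes were the SOXE genes, Sox6, members of lists as examples, and the 5 genes of at least 10 mean CPM most like each SOXE gene. Coding sequences were aligned with MAFFT 7.526. On simulated counts and TPM with 200 genes changed 2-fold, the tests were checked and all such genes were found. The simulated noise was the same for all genes, no library stood apart, and the changed genes were well expressed. That check thus does not cover lower or noisier genes. The sorted table holds 26 dates in place of gene symbols. Alternatives were RLE or no scaling, no filter, DESeq2 1.42.0, transcript length offsets, limma on TPM, both stages in 1 fit, and leaving out each library. A block on the column letters, and gene lists and correlations without OL guide 1 library B, were added after seeing the data. Protein sequences were not used here. A few single-gene results are not reported here; such genes stay in the counts.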

Additional observations from a re-analysis of the deposited data

Results flagged for a closer look

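Sox9 moved in opposite directions in the comparisons of OLs with OPCs in the 2 sets of libraries. In the unsorted control cultures it was higher in OLs by 0.51 on the log2 scale, in 3 of 3 libraries, and between the sorted cells it was lower in OLs by a log2(TPM + 1) difference of -1.47, again in 3 of 3. On that same scale the control cultures gave 0.65 (limma adjusted p 0.00489). The difference between these effects was not tested, since the tables were scaled separately.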

How the results depend on the processing

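For the SOXE genes, 648 alternative values were computed: 623 kept direction and side of the threshold, 13 lost a call, 8 gained one and 4 changed sign. With limma on log2(TPM + 1) calls were lost for Sox9 in targeted OPCs (-0.59), for Sox9 and Sox10 with guide 1 (-0.51 and -0.85) and guide 2 (-0.67 and -0.84) in OPCs, for Sox10 with guide 2 in OLs (-0.74) and for Sox8 between targeted stages (0.23), and the Sox10 stage difference in response changed sign (-0.11). Calls of Sox9 were gained in OLs with both stages in 1 fit (-0.24 for both guides, -0.32 for guide 1), and with DESeq2 for guide 1 (-0.32) and for the stage difference (0.41). The cause was not tested. The share of Sox10 in control OLs was 25.5% from CPM per implied length, beside 25.9%.

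Leaving out 1 library at a time moved Sox9 between -0.28 and -0.21 in targeted OLs, -0.39 and -0.24 with guide 1, -0.21 and -0.13 with guide 2, and 0.37 and 0.47 for the stage difference. In OPCs Sox9 ran from -0.65 to -0.52 and Sox10 from -1.12 to -0.92 with guide 1, and Sox10 from -1.07 to -0.86 with guide 2. Changes of sign were Sox8 with guide 2 in OPCs (-0.027 to 0.026, with -0.027 without control library A and -0.0027 without guide 2 library C) and Sox10 between guides in OPCs (-0.017 to 0.13, the former without guide 1 library A).

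Over all genes, 479 were called in targeted OPCs (85 to 790 with other settings, 149 to 550 with 1 library left out) and 874 in targeted OLs (411 to 1604, and 353 to 2337, the highest without guide 1 library B). The columns carry letters in place of the labels' replicate numbers. A replicate block on the letters, chosen after seeing the data, changed no call of a SOXE gene (Sox9 -0.62 in targeted OPCs and -0.25 in targeted OLs, Sox10 -0.94 and -0.86) and gave 274 genes in targeted OPCs and 607 in targeted OLs, and with single guides 287 and 128 in OPCs and 400 and 355 in OLs. Deviations from the group means did not pair by letter: r was -0.051 to 0.032 over 7 same-letter pairs in OPCs, -0.020 to 0.084 over 9 in OLs and 0.011 to 0.052 over 3 in sorted cells. Sox10 in targeted OPCs rests on 214 to 262 estimated counts a library, and 5 targeted libraries limit the precision there.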

Other observations

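Genes known as SOX10 targets outside the oligodendrocyte lineage, in neural crest, melanocytes or Schwann cells, were mostly low and not called. In targeted OPCs 1 of 7 tested was called, Pou3f1, a POU factor of promyelinating Schwann cells (log2 -0.39 ± 0.07 SE, edgeR adjusted p 0.0247), beside 3.59% of all genes. Pou3f1 was called with guide 1 but not with guide 2 alone. In targeted OLs 1 of 8 was called, Ednrb, the endothelin receptor of neural crest and glia (0.42 ± 0.07 SE, edgeR adjusted p 0.00918), beside 6.5% of all genes. Without OL guide 1 library B, 2 of 9 were called higher, Ednrb and Pou3f1, beside 8.32% of all genes. Pou3f1 stood at 0.41 ± 0.08 (SE, edgeR adjusted p 0.0076) there, opposite to its direction in OPCs. In sorted OLs Dct, a melanin synthesis enzyme, was higher by 5.06 ± 0.21 (SE) on the log2(TPM + 1) scale (limma adjusted p 1e-05). Ednrb and Mitf were also called higher there and Pmp22 and Pou3f1 lower, of 5 tested, beside 26.3% and 33.8% of all genes.

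Of genes known as SOX9 partners or targets in glia, 3 of 8 tested were called higher in targeted OPCs, where Sox9 was lower, among them Apcdd1 (0.46 ± 0.07 SE) and Mmd2 (0.45 ± 0.07 SE), with edgeR adjusted p of 0.0148 and 0.0135, where 1.95% of all genes were called higher. In targeted OLs Mmd2 was called higher (0.32 ± 0.06 SE, edgeR adjusted p 0.0122) and the other 8 were not called, beside 6.5% of all genes, and without OL guide 1 library B 3 of 9 were called higher, beside 8.32%. Nfia, which acts with SOX9 at the start of gliogenesis, stood at -0.10 ± 0.10 (SE) in OPCs and 0.02 ± 0.10 (SE) in OLs (edgeR adjusted p 0.713 and 0.950).

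All 16 cell cycle genes on the list were called lower in control OLs than in control OPCs, where 43% of all genes were called in either direction. They were called lower for 10 of 16 in targeted OLs and 2 of 16 in targeted OPCs, beside 3.37% and 1.63% of all genes, with 0 called higher. Without OL guide 1 library B, 12 of 16 were called lower in targeted OLs and 0 higher, beside 8.6% and 8.32%. In OPCs the guides gave different counts, 7 of 16 with guide 1 (all lower, median -0.43, beside 2.78% of all genes called) and 0 of 16 with guide 2 (median -0.06, beside 2.04%), and none was called between the guides. Their median log2 difference was -0.78 in OLs and -0.24 in OPCs.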
